A study of Mus musculus with 12 samples.

Results

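The sarcomere genes of adult skeletal muscle were followed across the transcriptomes of mouse rhabdomyosarcoma tumors. They are 40 of the 38894 RefSeq genes whose transcripts were quantified, chosen by name with earlier results of these data known. The shares over all genes given beside counts are therefore a reference and not a test of the list. Of the 40 genes, 34 encode fast isoforms or parts common to fast and slow muscle, and 6 encode slow isoforms. Mybpc1, the slow-type myosin binding protein C, is counted among the 34, and fast fibres express it too. Embryonal rhabdomyosarcoma (RMS) is a tumor of cells on the muscle lineage, and Rd76-9 is a mouse RMS cell line that was first raised with methylcholanthrene. Rd76-9 cells were injected under the skin of the flank of WT C57Bl/6J mice, and 12 tumors were collected for RNA-seq at day 16, 3 in each of 4 groups. Vehicle-treated mice (tumors m1, m2 and m3) received empty nanoparticles and saline. The VCR group (m4, m5 and m6) received vincristine, which blocks microtubules, at 0.25 mg/kg. The RCM1-NPFA group (m7, m8 and m9) received RCM1, an inhibitor of FOXM1, at 8 µg in nanoparticles that carry folic acid. The VCR + RCM1-NPFA group (m10, m11 and m12) received both at the same doses. Groups were taken from the sample titles, because a treatment label of the vehicle-treated tumors also names RCM1. All groups share a single tumor cell line and a host with normal muscle beneath the injected skin, and each library is bulk RNA of a whole tumor.

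A sarcomere is built from thick filaments of myosin and thin filaments of actin, which are anchored in Z-discs and held in register by titin and the M-band. Calcium switches contraction on through the troponin complex of the thin filament, made of troponin T, which binds tropomyosin, troponin I, which inhibits, and troponin C, which binds calcium. Fast and slow fibres express different genes for myosin heavy chains, myosin light chains and each troponin, so the isoforms present report the kind of fibre. Embryonic and neonatal isoforms come first in development, and RMS tumors are known to express some muscle genes without building ordered sarcomeres.

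The libraries held between 29337835 and 32103617 estimated counts. Levels are given as TPM, a transcript share that is scaled to the same total in every tumor and corrected for transcript length and so allows genes to be set side by side. Tests are edgeR's quasi-likelihood test on estimated counts over the 17599 genes with enough reads, and a gene is called at an adjusted p under 0.1. Of the 40 genes, 37 passed the filter on low counts, and Myh7, Myl2 and Myl3, all slow, did not. In bulk tumors, fewer cells of a type and less RNA per cell cannot be told apart.

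Fast isoforms were far higher in most treated tumors than in vehicle-treated tumors, and slow isoforms were low in all 12 tumors. The fast sum takes Myh1, Myh2, Myh4 and Tnnt3, and the slow sum takes Myh7, Tnnt1, Tnni1 and Myl2. The fast sum was 38.5, 12.2 and 16.1 TPM in m1, m2 and m3, and 825, 2695 and 407 TPM in m4, m5 and m6. It was 39.6, 58.1 and 5341 TPM in m7, m8 and m9, and 573, 1186 and 113 TPM in m10, m11 and m12. Thus each of the 9 treated tumors lay above the highest vehicle-treated tumor, although m7 exceeded m1 only narrowly, and m9 was the highest of all. The slow sum ranged only from 4.19 TPM in m2 to 9.07 TPM in m8, and the groups overlapped.

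**Figure D1:**
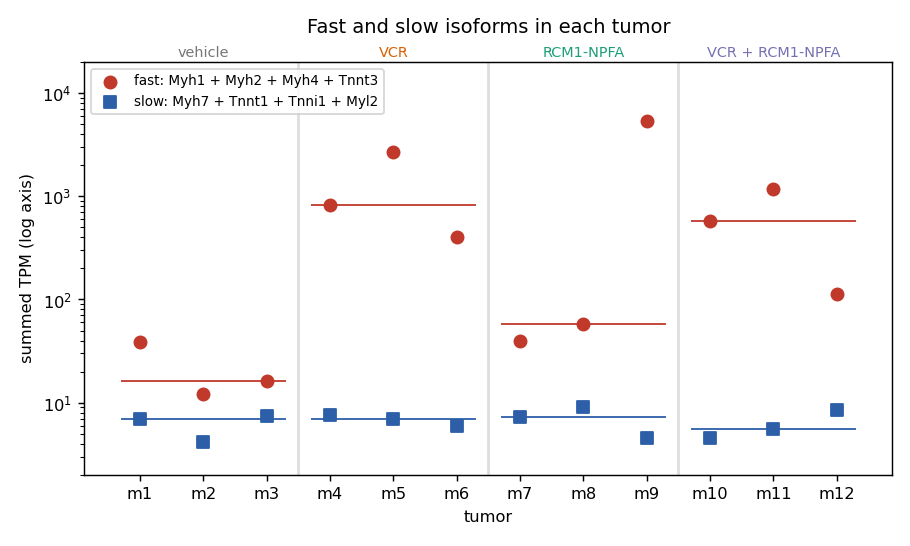
Summed TPM (log axis) of 4 fast isoforms (circles) and 4 slow isoforms (squares) in each of 12 tumors, with lines at the group medians. The fast sum runs from 12.2 to 5341 TPM, while the slow sum stays between 4.19 and 9.07 TPM.

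The ratio of the fast to the slow sum therefore followed the fast sum. It was 5.61, 2.92 and 2.19 in the vehicle-treated tumors and 108, 389 and 68.4 after VCR. After RCM1-NPFA it was 5.41 in m7, 6.40 in m8 and 1181 in m9, so 2 of these 3 tumors had a ratio like that of m1. After the combination it was 127 in m10, 216 in m11 and 13.3 in m12. The medians were 2.92 for vehicle, 108 for VCR, 6.40 for RCM1-NPFA and 127 for the combination. Without m7 or m8 the median after RCM1-NPFA was 594 or 593, so it depended on which tumors were counted. These ratios are a description, with no test.

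All 40 genes together made up 269, 144 and 114 TPM in the vehicle-treated tumors, and 4060, 11072 and 1918 TPM in the VCR-treated tumors. They made up 285, 327 and 19606 TPM in m7, m8 and m9, which in m9 is 1.96% of all transcripts. In m10, m11 and m12 the sum was 2405, 4979 and 605 TPM. In the vehicle-treated tumors most of the sum was a single gene, Tnni2, which held 57.4%, 80.5% and 70.4% of it, against 11.1% in m9. Without Tnni2 the sum was 115, 28.2 and 33.7 TPM in m1, m2 and m3, so m1 stood above m2 and m3. Indeed 33 of the 34 fast and common genes were higher in m1 than in m2 and m3. The tumors thus differed within groups as well as between them, and 28 of the 34 were highest in m9.

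**Figure D2:**
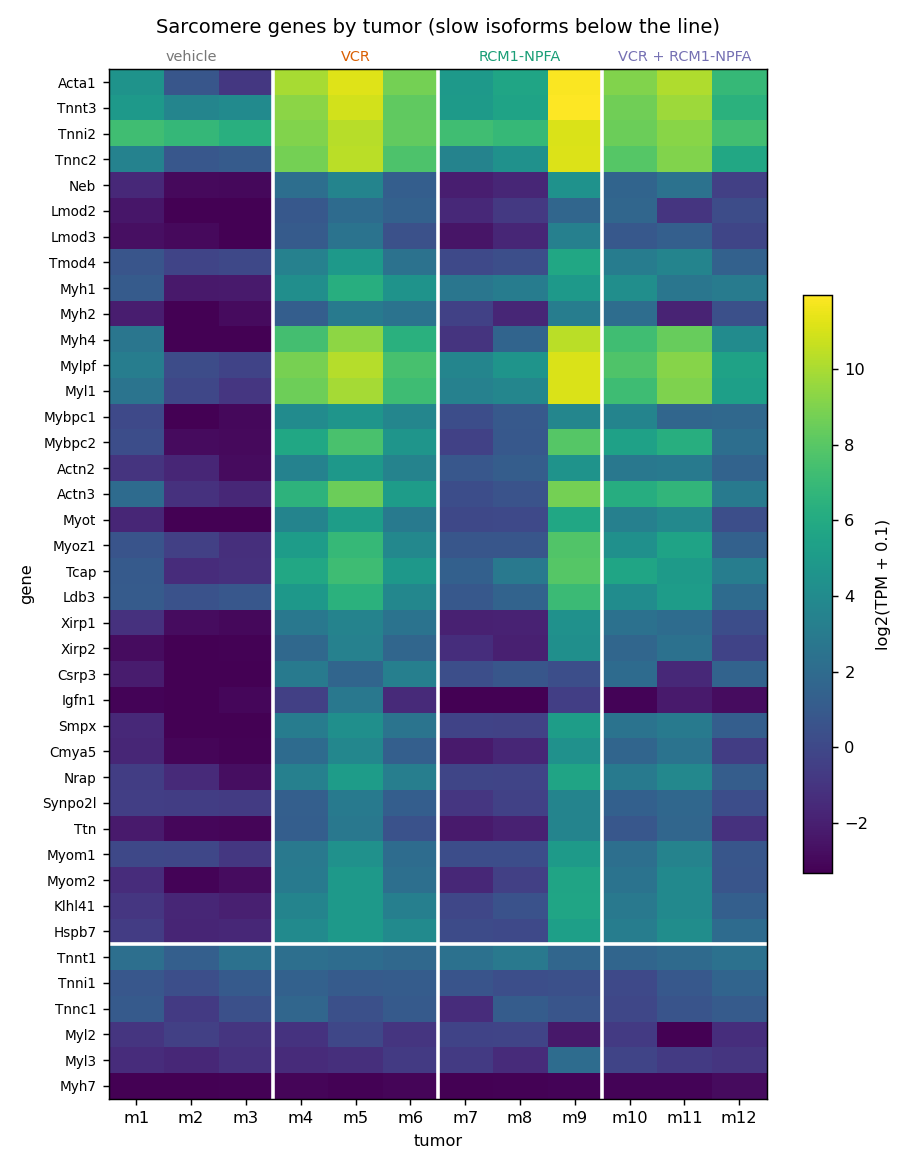
Heat map of log2(TPM + 0.1) for the 40 genes (rows, grouped by place in the sarcomere, slow isoforms below the white line) in the 12 tumors (columns, by group). The fast and common genes are brightest in m9 and m5 and dark in m2 and m3. Of the slow rows, Myl3 is also brightest in m9, at 4.16 TPM, and Tnnt1 stays between 2.35 and 7.10 TPM.

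Myosin heavy chains are the motors of the thick filament, and each fibre type is named after the chain it uses: Myh4 (2B) and Myh1 (2X) in the fastest fibres, Myh2 (2A) in fast oxidative fibres and Myh7 in slow fibres. Myh4 was 6.39 TPM in m1 and 0 in m2 and m3, where 3 counts, the limit that a count of 0 allows, would be 0.102 and 0.0971 CPM (counts scaled to library size). It was 169, 659 and 82.7 TPM in m4, m5 and m6. It was 0.389, 2.89 and 1339 TPM in m7, m8 and m9, and 157, 340 and 16.2 TPM in m10, m11 and m12. Thus m7 and m8 lay below m1, and the RCM1-NPFA and vehicle groups overlapped.

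Myh1 was 2.02, 0.108 and 0.118 TPM in m1, m2 and m3, and 18.6, 77.4 and 23.1 TPM in m4, m5 and m6. It was 6.37, 8.44 and 29.5 TPM in m7, m8 and m9, and 18.3, 6.40 and 8.23 TPM in m10, m11 and m12, so every treated tumor lay above every vehicle-treated tumor. Unlike the fast sum, Myh1 was highest in m5. Myh2, which never exceeded 8.82 TPM, was at 0.133, 0 and 0.0358 TPM in m1, m2 and m3. It was 2.23, 7.66 and 5.50 TPM after VCR, 0.677, 0.214 and 8.82 TPM after RCM1-NPFA, and 4.33, 0.193 and 1.25 TPM after the combination. Myh7 had no more than 4 counts in any tumor and reached 0.0338 TPM at most, in m12. Because kallisto divides reads that match several of these similar genes, the split between Myh1, Myh2 and Myh4 is less certain than their sum.

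The make-up of the heavy chains differed between tumors of the same group. Of the TPM of Myh1, Myh2, Myh4 and Myh7, Myh4 held 89.0%, 88.6% and 74.3% in m4, m5 and m6. In the RCM1-NPFA group it held 97.2% in m9 but 5.23% in m7 and 25.0% in m8, where Myh1 held 85.7% and 73.1%. After the combination Myh4 held 87.4% in m10, 98.1% in m11 and 63.0% in m12. Counting error is small beside these differences: Myh4 had 43 of 832 fast heavy chain counts in m7, or 5.17% (95% exact binomial interval 3.77% to 6.90%), and 344 of 1381 in m8, or 24.9% (22.6% to 27.3%). The vehicle-treated tumor m1 had 732 of 979 counts from Myh4, or 74.8% (71.9% to 77.5%), whereas m2 and m3 had only 11 and 18 fast heavy chain counts in all. These intervals cover counting error only.

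**Figure D3:**
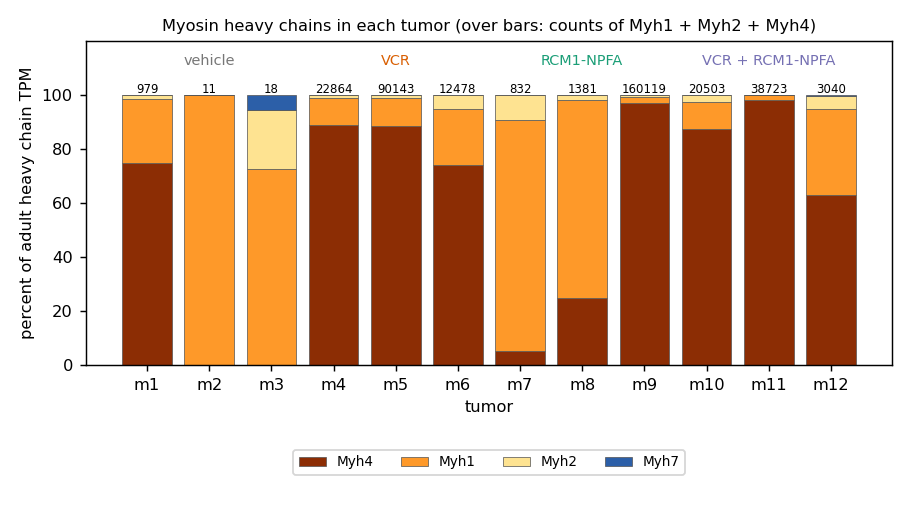
Stacked bars of the percent of adult heavy chain TPM from Myh4, Myh1, Myh2 and Myh7 in each tumor, with the counts of the 3 fast chains over each bar. Myh4 makes up 97.2% in m9 and 98.1% in m11, and Myh1 makes up 85.7% in m7 and 73.1% in m8.

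The fast heavy chain genes lie side by side on chromosome 11 of GRCm38.p6, in the order Myh2 (67171027 to 67197517), Myh1 (67200102 to 67224577) and Myh4 (67237812 to 67260447), while Myh7 lies on chromosome 14 (54970684 to 54994626). Their promoters are printed because these genes share a cluster and yet took different shares in different tumors, and the promoter of the slow troponin Tnnt1 on chromosome 7 is printed as that of the slow gene with the most reads. Each sequence is the 250 bases before the first base of the gene, from RefSeq on GRCm38.p6, 5′ to 3′ on the strand of the gene. They are chr11:67170777-67171026 (Myh2, plus strand), chr11:67199852-67200101 (Myh1, plus), chr11:67237562-67237811 (Myh4, plus), chr14:54994627-54994876 (Myh7, minus) and chr7:4515976-4516225 (Tnnt1, minus). Capitals mark E-boxes (CANNTG, bound by MyoD family factors), MEF2 sites, CArG boxes (bound by serum response factor) and the letters TATAAA.
Myh2: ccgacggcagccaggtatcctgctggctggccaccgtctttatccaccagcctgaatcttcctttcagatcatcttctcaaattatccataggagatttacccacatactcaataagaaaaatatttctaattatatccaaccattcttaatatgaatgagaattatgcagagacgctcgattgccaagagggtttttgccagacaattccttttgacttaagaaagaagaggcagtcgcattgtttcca
Myh1: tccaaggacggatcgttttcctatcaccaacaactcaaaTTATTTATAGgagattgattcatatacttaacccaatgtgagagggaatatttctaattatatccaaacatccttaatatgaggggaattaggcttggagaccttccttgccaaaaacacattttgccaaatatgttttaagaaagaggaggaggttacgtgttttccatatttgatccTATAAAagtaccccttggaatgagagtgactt
Myh4: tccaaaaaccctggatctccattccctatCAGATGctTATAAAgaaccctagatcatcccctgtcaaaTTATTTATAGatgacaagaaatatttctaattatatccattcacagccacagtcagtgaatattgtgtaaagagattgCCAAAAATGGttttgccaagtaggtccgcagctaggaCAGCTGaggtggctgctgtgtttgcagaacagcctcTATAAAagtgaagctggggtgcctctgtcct
Myh7: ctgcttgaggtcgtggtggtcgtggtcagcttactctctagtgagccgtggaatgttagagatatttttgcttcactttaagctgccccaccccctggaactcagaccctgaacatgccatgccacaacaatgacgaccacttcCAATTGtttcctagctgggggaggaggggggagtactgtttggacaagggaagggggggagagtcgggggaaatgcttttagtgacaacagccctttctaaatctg
Tnnt1: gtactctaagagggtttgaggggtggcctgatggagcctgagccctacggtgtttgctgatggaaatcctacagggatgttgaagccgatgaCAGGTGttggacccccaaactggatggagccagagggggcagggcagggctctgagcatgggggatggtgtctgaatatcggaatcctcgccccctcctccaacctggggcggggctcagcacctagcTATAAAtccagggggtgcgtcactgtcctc

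The E-box, MEF2 and CArG patterns read the same on both strands, and TATAAA was searched on the strand of the gene. The Myh4 window held 2 E-boxes, 1 MEF2 site, 1 CArG box and TATAAA at 2 places, none of which overlapped. The Myh1 window held 1 MEF2 site and 1 TATAAA, the Myh2 window held none of the 4 patterns, the Myh7 window held 1 E-box, and the Tnnt1 window held 1 E-box and 1 TATAAA. Of the 40 genes, 30 had 36 windows in the RefSeq table. A MEF2 site was in 19.4% of these windows, against 2.92% of all 32851 windows, and a CArG box was in 16.7%, against 1.47%. An E-box was in 86.1%, against 66.2% of all windows, and TATAAA was in 11.1%, against 7.59%. These matches are descriptions of letters and not of binding.

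The regulatory and essential light chains wrap the neck of the myosin head, and Mylpf and Myl1 are the fast pair. Unlike Myh4, both were above every vehicle-treated tumor in m7 and m8. Mylpf, the thick filament gene with the highest mean level, was 8.88, 1.06 and 0.746 TPM in m1, m2 and m3 and 452, 1241 and 179 TPM in m4, m5 and m6. It was 12.5, 23.5 and 2133 TPM in m7, m8 and m9, and 212, 569 and 44.7 TPM in m10, m11 and m12. Myl1 was 5.86, 0.847 and 0.427 TPM in vehicle-treated tumors, 378, 968 and 147 TPM after VCR, 10.3, 12.7 and 2167 TPM after RCM1-NPFA, and 149, 514 and 38.9 TPM after the combination. The slow counterparts did not follow. Myl2, the slow regulatory light chain, was between 0 TPM in m11 and 0.844 TPM in m5, with 9 counts at most. Myl3, the slow essential light chain, was between 0.227 and 0.761 TPM in 11 tumors and 4.16 TPM, or 61 counts, in m9.

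The troponins gave the clearest pairs of fast and slow genes. Tnnt3, fast troponin T, was 30.0, 12.1 and 15.9 TPM in m1, m2 and m3 and 635, 1951 and 295 TPM in m4, m5 and m6. It was 32.1, 46.6 and 3963 TPM in m7, m8 and m9, and 394, 840 and 86.8 TPM in m10, m11 and m12. Its slow counterpart Tnnt1 was 4.77, 2.35 and 5.06 TPM in vehicle-treated tumors and between 3.06 TPM in m10 and 7.10 TPM in m8 in treated tumors, so all groups overlapped. The ratio of Tnnt3 to Tnnt1 was 6.28, 5.16 and 3.15 in vehicle-treated tumors and between 6.29 in m7 and 1244 in m9 in treated tumors.

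Tnni2, fast troponin I, differed from its fast partners Tnnt3 and Tnnc2 in its higher level in vehicle-treated tumors, at 155, 116 and 80.4 TPM. It was 531, 1250 and 306 TPM after VCR, 153, 120 and 2184 TPM after RCM1-NPFA, and 375, 593 and 163 TPM after the combination, so m7 and m8 lay within the vehicle range. Tnni1, slow troponin I, was 1.69, 1.19 and 1.88 TPM in vehicle-treated tumors and 2.60, 1.97 and 2.08 TPM in VCR-treated tumors. It was between 0.930 and 2.96 TPM in the other tumors. Tnnc2, fast troponin C, was 10.8, 1.66 and 2.01 TPM in m1, m2 and m3, 438, 1302 and 205 TPM after VCR, 11.4, 20.8 and 2269 TPM after RCM1-NPFA, and 239, 540 and 56.5 TPM after the combination. Tnnc1, the troponin C of slow and cardiac muscle, was between 0.288 TPM in m7 and 3.22 TPM in m4, with every group overlapping the vehicle group.

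Acta1, the skeletal alpha-actin of the thin filament, lies on chromosome 8 (123891758 to 123894775) and had the highest mean level of the thin filament genes. It was 23.3, 1.62 and 0.461 TPM in m1, m2 and m3, and 1011, 2338 and 435 TPM in m4, m5 and m6. It was 30.1, 49.9 and 3701 TPM in m7, m8 and m9, and 543, 1126 and 118 TPM in m10, m11 and m12. No treated tumor overlapped the vehicle-treated tumors.

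VCR against vehicle was the comparison in which these genes were called. In VCR-treated tumors 21 of the 37 genes tested were called higher and none lower, where 2.79% of all genes tested were called higher and 2.75% lower. Those 21 included the fast heavy chains Myh1 (log2 fold change 5.83, SE 1.08, adjusted p = 0.0651) and Myh2 (6.58, SE 1.65, adjusted p = 0.0847), the fast light chains, Tnnc2 and Acta1 (7.37, SE 2.08, adjusted p = 0.0947). Every one of the 34 fast and common genes was higher in all 3 VCR-treated tumors than in all 3 vehicle-treated tumors, with log2 fold changes from 2.72 to 8.39. Counting Tnni1, 35 of 37 genes were separated upward in this way, where 13.5% of all genes were. The median log2 fold change of the 37 genes was 6.28, against 0.00 over all genes tested.

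Of the 6 slow isoforms listed, the 3 tested did not pass. The log2 fold change after VCR was 0.02 (SE 0.35, adjusted p = 0.981) for Tnnt1, 0.63 (SE 0.35, adjusted p = 0.311) for Tnni1 and 0.89 (SE 0.63, adjusted p = 0.430) for Tnnc1. Tnni1 was nevertheless higher in all 3 VCR-treated tumors than in all 3 vehicle-treated tumors. Mybpc1, slow-type by name, rose (5.89, SE 1.25, adjusted p = 0.07).

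The called genes with the largest changes after VCR were Xirp2, Myot, Igfn1, Mybpc2 and Myl1. Xirp2, an actin-binding protein of Z-discs and myotendinous junctions, was 0.0442, 0 and 0.00855 TPM in vehicle-treated tumors and 3.55, 10.6 and 3.13 TPM in VCR-treated tumors, a log2 fold change of 8.39 (SE 2.14, adjusted p = 0.0851). Myot, which encodes the Z-disc protein myotilin, went from 0.211, 0 and 0 TPM to 11.7, 36.5 and 7.66 TPM, a log2 fold change of 8.12 (SE 2.11, adjusted p = 0.0856). Mybpc2, fast myosin binding protein C of the thick filament, went from 1.13, 0.0342 and 0.0300 TPM to 55.7, 187 and 24.6 TPM, with 7.89 (SE 2.31, adjusted p = 0.0992). Myl1 changed by the same 7.89 (SE 2.22, adjusted p = 0.0947). Igfn1 went from 0.00987, 0 and 0.0187 TPM to 0.653, 6.74 and 0.255 TPM, with m5 far above the rest. In none of these 5 genes did the groups overlap.

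The calls after VCR lay close to the threshold. Their adjusted p-values ran from 0.0504 to 0.0992, and those of the other 13 fast and common genes ran from 0.101 to 0.163. These 13 included Tnnt3 (5.76, SE 1.73, adjusted p = 0.103), Myh4 (7.30, SE 2.79, adjusted p = 0.163) and Tnni2 (2.72, SE 1.00, adjusted p = 0.151). At an adjusted p under 0.05 none of the 37 was called, while at an unadjusted p under 0.05 the count was 34, where 11.7% of all genes were higher at that level. The count was 34 by DESeq2 on all tumors, which called 7.21% of all genes higher, and 5 by limma-voom, which called 1.81%. Leaving out a tumor lowered it to 4 without m1, 5 without m3, 7 without m10, 1 without m11, 5 without m12, and 0 without m2, m4 or m5. It raised the count to 29 without m6, 28 without m7, 28 without m8 and 34 without m9. Without m5, the log2 fold change was 5.21 for Igfn1, and without m1, where the remaining vehicle-treated tumors hold almost no reads, it was 12.60 for Myot.

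After RCM1-NPFA most of the fast and common genes were far higher in m9 than in m7 and m8, and none passed the test. Of the 34, 21 in m7 and 27 in m8 lay above every vehicle-treated tumor. In edgeR 0 of 37 genes were called and 0% of all genes, with adjusted p-values from 0.419 upward. At an unadjusted p under 0.05, 33 of 37 were higher, where 5.34% of all genes were, and DESeq2 on all tumors called 27 higher, with 1.11% of all genes, while limma-voom called none. Of the 37, 22 were higher in every RCM1-NPFA-treated tumor than in every vehicle-treated tumor, where 5.56% of all genes were. The median log2 fold change was 6.06. Without m9 it was 1.63, with 12 genes higher at an unadjusted p under 0.05.

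The genes with the smallest p after RCM1-NPFA were those in which m7 and m8 also stood apart from vehicle. Actn2, the alpha-actinin that crosslinks actin at the Z-disc, was 0.391, 0.208 and 0.0353 TPM in m1, m2 and m3 and 1.65, 2.14 and 23.0 TPM in m7, m8 and m9, a log2 fold change of 5.32 (SE 1.10, adjusted p = 0.419). Myh1 followed with 4.33 (SE 1.03, adjusted p = 0.419) and Csrp3 with 4.81 (SE 1.18, adjusted p = 0.419). Tnnt1 had a log2 fold change of 0.36 (SE 0.35, adjusted p = 0.789) and Tnni1 one of -0.16 (SE 0.36, adjusted p = 0.926), neither past the threshold. Reads that Actn2 shares with the fast isoform Actn3 may be split between them.

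After the combination the fast and common genes again lay above vehicle, without passing the test. In edgeR 0 of 37 genes were called and 0% of all genes, with adjusted p-values from 0.668 upward. At an unadjusted p under 0.05, 29 of 37 were higher, where 3.81% of all genes were, DESeq2 on all tumors called 16 higher, with 0.247% of all genes, and limma-voom none. As many as 33 of 37 were higher in every combination-treated tumor than in every vehicle-treated tumor, where 7.09% of all genes were, and the median log2 fold change was 4.93. Leaving out m9, a tumor of another group, gave 14 calls. The smallest p-values belonged to Csrp3 (5.60, SE 1.13, adjusted p = 0.668), Actn2 (4.70, SE 1.09, adjusted p = 0.668) and Lmod2 (5.53, SE 1.37, adjusted p = 0.668). Tnnt1 changed by 0.01 (SE 0.35, adjusted p = 0.996) and Tnni1 by 0.24 (SE 0.35, adjusted p = 0.897). The 3 comparisons share the vehicle-treated tumors, so m1, m2 and m3 enter each of them.

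**Figure D4:**
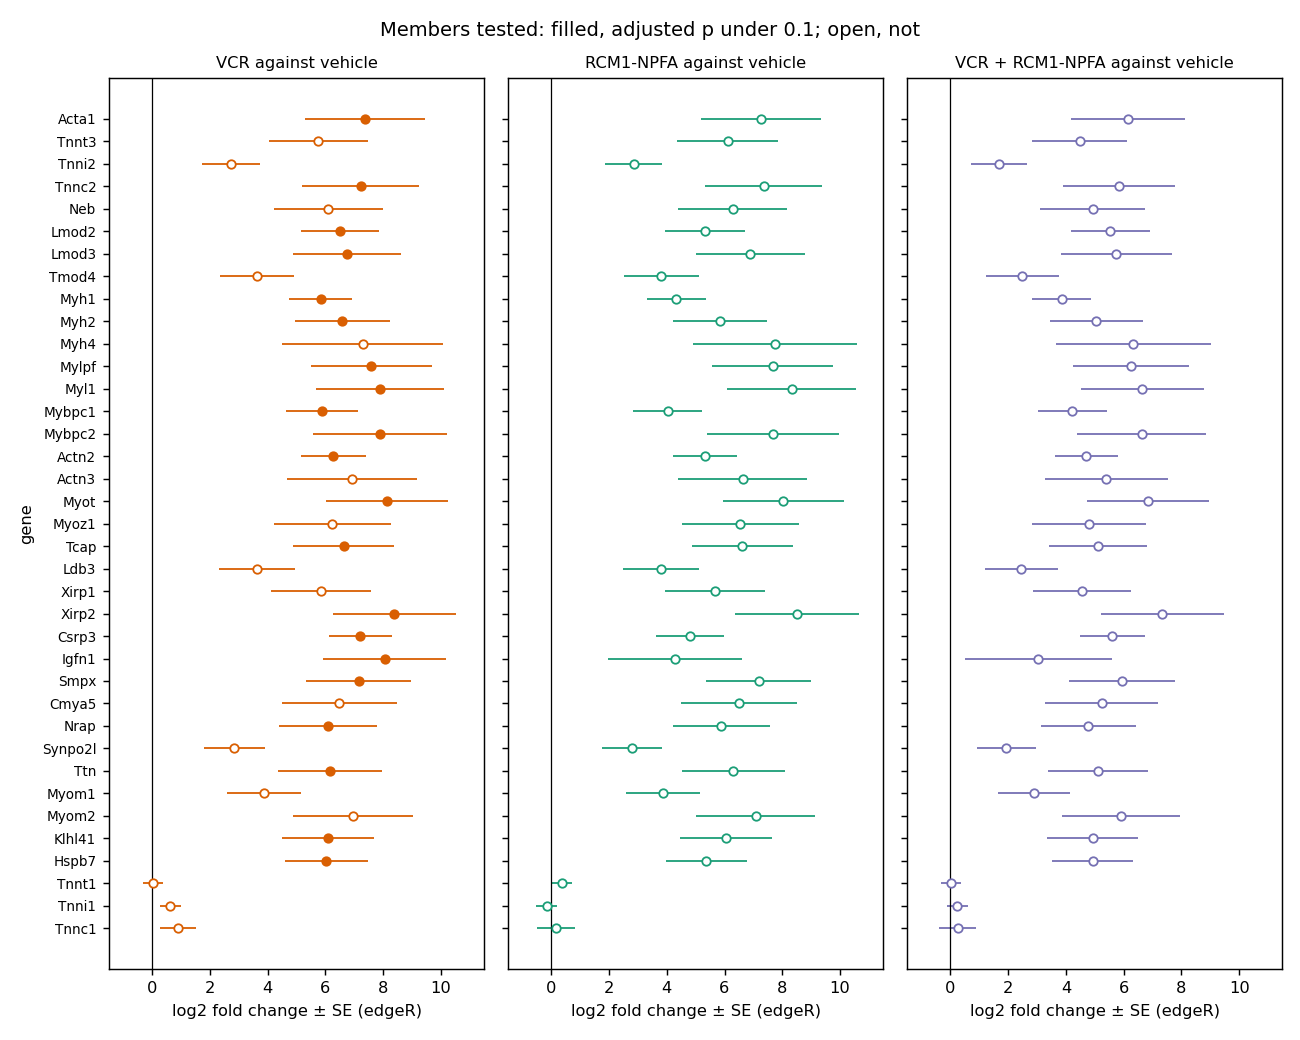
Log2 fold change ± SE from edgeR for the 37 genes tested, in VCR, RCM1-NPFA and VCR + RCM1-NPFA against vehicle (3 tumors in each group). Filled points passed an adjusted p under 0.1. In each panel the 34 fast and common genes lie to the right of 0, from 1.68 to 8.51, while Tnnt1, Tnni1 and Tnnc1 lie between -0.16 and 0.89.

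To determine whether the combination differed from the single drugs, it was set against each of them. Against VCR all 37 log2 fold changes were negative, with a median of -1.22, and 0 were called (0% of all genes). At an unadjusted p under 0.05, 3 were lower, where 2.68% of all genes were, and no call came from DESeq2 or limma-voom. Of the 37, 5 were lower in every combination-treated tumor than in every VCR-treated tumor, where 6.88% of all genes were. These 5 were Actn2, Igfn1, Mybpc1, Xirp1 and Myh1 (-1.98, SE 0.88, adjusted p = 0.855). Of the 37, Igfn1 had the largest difference (-5.01, SE 1.64, adjusted p = 0.855). Without m5 the median was -0.27.

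Against RCM1-NPFA the median log2 fold change was -1.16, with 0 genes called (0% of all genes), none at an unadjusted p under 0.05 (1.35% of all genes were higher and 0.716% lower), and none by DESeq2 or limma-voom. The sign of that median turned on m9, without which it was 3.28, with 30 of 37 genes higher at an unadjusted p under 0.05, and it was 0.73 in limma-voom. The interaction asks whether the effects of the drugs add on the log2 scale. Its median was -7.37, 0 genes were called by edgeR (0% of all genes) and none by limma-voom, 34 were lower at an unadjusted p under 0.05, where 7.27% of all genes were, and DESeq2 called 27 lower, with 1.68% of all genes. The lowest adjusted p in edgeR was 0.293, and without m9 the median was -2.79.

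By place in the sarcomere, calls after VCR were spread over each part of the structure, and each count stands against 2.79% of all genes called higher. In the thick filament 6 of 7 genes tested were called higher. Myh4 was higher in every VCR-treated tumor without passing (7.30, SE 2.79, adjusted p = 0.163). In the thin filament 4 of 11 were called higher, and the other 7 included the slow troponins. Of the nebulin and capping genes, Neb, the ruler of thin filament length, went from 0.235, 0.0282 and 0.0279 TPM to 4.54, 11.6 and 2.29 TPM without passing (6.10, SE 1.88, adjusted p = 0.106). Tmod4, which caps the pointed end, had 3.63 (SE 1.29, adjusted p = 0.143). Lmod2 and Lmod3, which nucleate actin filaments, both rose.

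Titin and the M-band gave 1 call of 3. Ttn, the giant spring that spans from Z-disc to M-band, was 0.117, 0.0184 and 0.0159 TPM in vehicle-treated tumors and 2.23, 6.72 and 1.32 TPM after VCR (6.17, SE 1.80, adjusted p = 0.0992). Myom2, a myomesin of the M-band and the highest of the 3 on average, was 0.290, 0.0117 and 0.0418 TPM and then 7.43, 29.4 and 4.74 TPM (6.95, SE 2.07, adjusted p = 0.101). It was 0.231, 0.658 and 47.9 TPM in m7, m8 and m9, and 5.49, 14.9 and 1.51 TPM in m10, m11 and m12. Myom1 had 3.87 (SE 1.28, adjusted p = 0.123).

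In the Z-disc and costamere 8 of 14 genes were called higher after VCR. Actn3, the alpha-actinin of the fastest fibres and the highest of these genes on average, was 3.88, 0.349 and 0.221 TPM in vehicle-treated tumors and 93.1, 360 and 34.4 TPM after VCR, without passing (6.91, SE 2.25, adjusted p = 0.118). In m7 and m8 it was 1.14 and 1.43 TPM, below m1, and in m9 it was 431 TPM. It was 74.5, 107 and 7.63 TPM after the combination. Tcap, the titin cap, rose by 6.63 (SE 1.75, adjusted p = 0.0871), Smpx by 7.15 (SE 1.82, adjusted p = 0.0851) and Nrap, found at sites where myofibrils form, by 6.08 (SE 1.69, adjusted p = 0.0924). Ldb3 (3.63, SE 1.31, adjusted p = 0.146), Synpo2l (2.85, SE 1.04, adjusted p = 0.151), Myoz1 (6.24, SE 2.02, adjusted p = 0.116), Xirp1 (5.84, SE 1.74, adjusted p = 0.102) and Cmya5 (6.48, adjusted p = 0.106) did not pass.

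Both genes of sarcomere chaperoning and turnover rose after VCR. Hspb7, a small heat shock protein of muscle, went from 0.563, 0.194 and 0.228 TPM to 16.0, 29.3 and 15.8 TPM (6.03, SE 1.44, adjusted p = 0.0766). It was 1.02, 0.953 and 38.7 TPM after RCM1-NPFA and 8.63, 18.0 and 3.97 TPM after the combination. Klhl41, which stabilizes nebulin, rose by 6.10 (SE 1.60, adjusted p = 0.0864).

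In 4 of the genes tested every vehicle-treated tumor held 3 counts or fewer, so their fitted changes depend on the prior count. For these 4 the ratio of pooled counts is given with its counting interval. Csrp3, the muscle LIM protein of the Z-disc, had 2 counts in all vehicle-treated tumors and 353 after VCR, a ratio of 174 (95% interval 47.7 to 1440). The ratio was 32.8 (8.73 to 276) after RCM1-NPFA and 58.2 (15.8 to 486) after the combination. Igfn1, which encodes a Z-disc protein, had 3 counts in vehicle-treated tumors and 885 after VCR, of which 801 were in m5. Its ratio was 290 (99.0 to 1411) after VCR and 9.13 (2.82 to 46.9) after the combination. Lmod2 had 3 counts against 305 after VCR, a ratio of 100 (33.9 to 488), and Lmod3 had 3 against 359, a ratio of 118 (40.0 to 574). These intervals do not include the spread between tumors.

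The fast and common genes differed in how closely they kept to Acta1 across treated tumors. Per 100 TPM of Acta1, Mylpf was between 37.9 and 57.6 TPM and Tnnc2 between 37.8 and 61.3 TPM in the 9 treated tumors, while Acta1 itself spanned from 30.1 to 3701 TPM. The SD of the log2 ratio to Acta1 over these tumors was 0.15 for Neb, 0.20 for Cmya5, 0.21 for both Mylpf and Tnnc2 and 0.24 for Ttn. It was 2.87 for Csrp3, 2.04 for Myh2, 1.79 for Myh1, 1.70 for Lmod2, 1.53 for Myh4, 1.42 for Mybpc1, 1.17 for Tnni2 and 1.12 for Actn2. For Igfn1 it was 1.79 over all 9 treated tumors. Igfn1 had 0 counts in m7 and m8, so its ratio there reflects only a small constant added to each TPM before taking log2. Of the 33 genes other than Acta1, 13 had an SD under 0.5, 10 had one from 0.5 to under 1, and 10 had one of 1 or more. The genes named here were singled out after their values were seen.

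Csrp3 departed most from the others. It was 0.120, 0 and 0 TPM in vehicle-treated tumors, 7.91, 3.05 and 9.51 TPM in m4, m5 and m6, 1.16, 1.58 and 1.16 TPM in m7, m8 and m9, and 3.90, 0.245 and 2.83 TPM in m10, m11 and m12. It was therefore highest in m6, the VCR-treated tumor with the lowest fast sum, and as high in m7 as in m9. Lmod2 was 1.75, 4.03 and 2.63 TPM in m4, m5 and m6, 0.234, 0.492 and 3.14 TPM in m7, m8 and m9, and 3.14, 0.410 and 1.05 TPM in m10, m11 and m12. In m11, which had the third largest fast sum, Csrp3 had 4 counts, Lmod2 stayed at 0.410 TPM and Myh2 at 0.193 TPM. Mybpc1 was highest in m5 at 25.4 TPM, with 12.8 TPM in m9 and 3.23 TPM in m11.

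**Figure D5:**
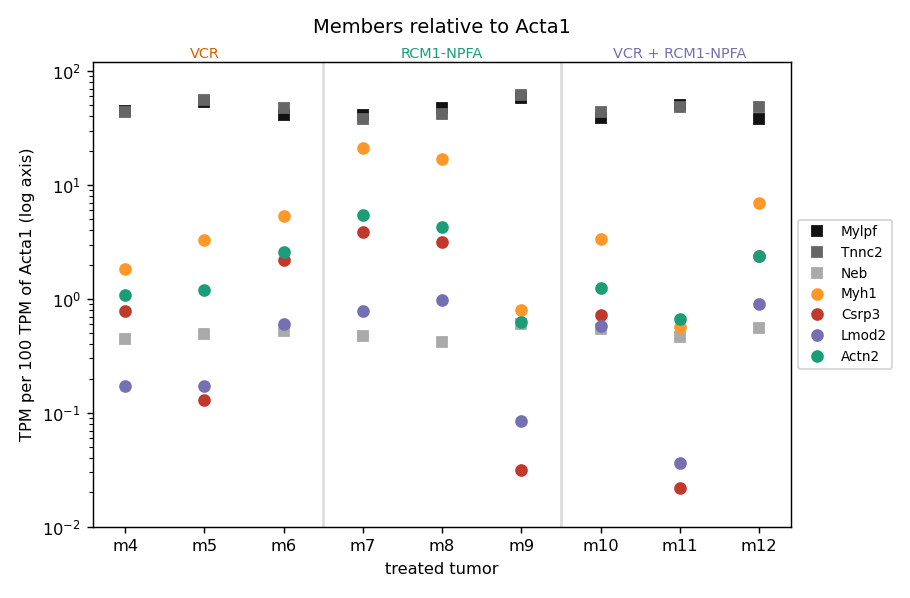
TPM of 7 genes per 100 TPM of Acta1 (log axis) in the 9 treated tumors. Mylpf, Tnnc2 and Neb (squares) keep nearly the same level in all tumors, whereas Csrp3 runs from 0.0217 in m11 to 3.85 in m7 and Myh1 from 0.569 in m11 to 21.2 in m7.

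Other sarcomere genes, 51 on a separate list, moved less as a group. After VCR 12 of the 47 tested were called higher and 1 lower, where 2.79% of all genes were called higher and 2.75% lower. The median log2 fold change of the 47 was 3.01. Among those called, the largest rises were Pdlim3 (6.90, SE 1.95, adjusted p = 0.0947) and Mypn (6.69, SE 1.89, adjusted p = 0.0947), both of the Z-disc. Trim54 (7.39, SE 2.23, adjusted p = 0.104) and Mybph (7.04, SE 2.19, adjusted p = 0.109) had larger log2 fold changes without passing. Myoz2 (4.73, SE 0.96, adjusted p = 0.0694) and Myom3 (4.21, SE 0.83, adjusted p = 0.0675) were also called higher. Myoz2 went from 0.189, 0 and 0.0514 TPM in m1, m2 and m3 to 2.19, 2.10 and 1.58 TPM in m4, m5 and m6. Des, the intermediate filament that ties Z-discs together, went from 5.77, 4.45 and 5.88 TPM to 104, 217 and 74.9 TPM (4.70, SE 1.29, adjusted p = 0.0910). The gene called lower was Nebl, a nebulin relative of cardiac muscle and nonmuscle cells (-1.47, SE 0.32, adjusted p = 0.0712). In the other comparisons with vehicle none was called.

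Of the developmental and cardiac isoforms, only Myl4 passed the test among those named here. Myh3, the embryonic heavy chain, reached 0.665 TPM in m4, and Myh8, the neonatal one, reached 0.422 TPM in m9. Myh6, the atrial chain, was at most 0.0580 TPM. Actc1, the cardiac actin of embryonic muscle, was 0.481, 0.518 and 0.702 TPM in vehicle-treated tumors, 5.06, 7.61 and 1.02 TPM after VCR and 43.8 TPM in m9, without passing after VCR (3.10, SE 1.72, adjusted p = 0.310). Myl4, the embryonic and atrial light chain, rose modestly after VCR, from 6.03, 4.63 and 4.71 TPM to 11.4, 10.1 and 9.03 TPM (0.86, SE 0.15, adjusted p = 0.0651). Tnnt2, the cardiac and embryonic troponin T, was between 2.03 and 7.35 TPM in all tumors.

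Markers of the muscle fibre outside the sarcomere moved with these genes. The summed level of 14 such markers was 278 to 340 TPM in vehicle-treated tumors, 939 to 4752 TPM after VCR, 284 to 7548 TPM after RCM1-NPFA and 451 to 2085 TPM after the combination. Most of the sum in vehicle-treated tumors was a single gene, Eno3, at 286, 269 and 261 TPM in m1, m2 and m3. Eno3 also held 244 of 284 TPM in m7 and 313 of 376 TPM in m8. After VCR 3 of the 13 tested were called higher, against 2.79% of all genes, with a median log2 fold change of 6.63. Ckm, the creatine kinase of muscle, was 15.5, 0.0447 and 0.121 TPM in m1, m2 and m3 and 538, 1641 and 217 TPM after VCR. It was 7.98, 13.8 and 2911 TPM in m7, m8 and m9, and 302, 689 and 44.1 TPM after the combination. Atp2a1, the calcium pump of fast fibres, was 10, 0.411 and 0.579 TPM in m1, m2 and m3 and 272, 907 and 120 TPM after VCR. It was 5.92, 11.4 and 1183 TPM in m7, m8 and m9, and 178, 266 and 27 TPM after the combination. Thus Ckm in m7 and m8, and Atp2a1 in m7, lay below m1. Which cells held these transcripts was not tested.

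Of 9 myogenic regulators, 2 of the 6 tested were called higher after VCR, against 2.79% of all genes. Myod1 was 0.0306, 0 and 0 TPM in vehicle-treated tumors and 2.16, 2.06 and 1.15 TPM after VCR (7.07, SE 1.75, adjusted p = 0.0822), and Myog was 0.0767, 0 and 0.0374 TPM and then 2.44, 1.79 and 1.72 TPM (5.58, SE 1.12, adjusted p = 0.0693). In the RCM1-NPFA group Myod1 was 0.0312, 0 and 2.19 TPM, and Myog was 0, 0.328 and 1.16 TPM. After the combination Myod1 was 0.639, 0.688 and 0.414 TPM, and Myog was 0.608, 0.978 and 1.89 TPM, all above every vehicle-treated tumor. Myf6 was 0.574, 0.668 and 0.466 TPM in vehicle-treated tumors, 9.40, 13.7 and 5.34 TPM after VCR, 0.243, 0.815 and 20.3 TPM after RCM1-NPFA, and 4.34, 6.87 and 1.75 TPM after the combination, without passing after VCR (4.15, SE 1.27, adjusted p = 0.105). Myf5 was between 38.8 and 59.9 TPM in every tumor, and Mef2c was between 3.47 and 14.6 TPM.

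Markers of other tissues were read beside these results, and their part in them was not tested. The tendon list summed to 55.0 to 96.1 TPM in vehicle-treated tumors, 118 to 121 TPM after VCR, 81.7 to 141 TPM after RCM1-NPFA and 89.8 to 125 TPM after the combination, with 2 of 6 markers, Thbs4 and Tnmd, called higher after VCR, against 2.79% of all genes. Thbs4 was 1.88, 0.847 and 0.149 TPM in vehicle-treated tumors and 12.3, 12.1 and 16.7 TPM after VCR, and Tnmd was 0, 0.0477 and 0 TPM and then 0.455, 0.453 and 0.676 TPM. Fmod and Scx, the most abundant of the list, were not called. The smooth muscle list gave 1 call of 6, Des, which skeletal muscle also expresses, and the cardiac list 1 of 3, Nppb, at 1.23 TPM or less. No adipocyte, keratinocyte, Schwann cell, endothelial or leukocyte marker was called after VCR, but only 1 of the 6 keratinocyte markers was tested. At an unadjusted p under 0.05, 4 of 5 endothelial markers and 1 of 5 leukocyte markers were higher, where 11.7% of all genes were. The lowest adjusted p was 0.114 for the endothelial list and 0.167 for the leukocyte list. The adipocyte list summed to 19.0 to 334 TPM in vehicle-treated tumors and 110 to 228 TPM after VCR, the endothelial list to 55.2 to 77.0 and 73.1 to 94.3 TPM, and the leukocyte list to 235 to 282 and 240 to 278 TPM. Keratinocyte markers summed to 4.73 TPM at most, and Schwann cell and nerve markers to 60.2 to 71.9 TPM in vehicle-treated tumors and 65.0 to 72.1 TPM after VCR.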

How the data were processed

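RNA was measured in 12 whole tumors, 1 library each. The authors made poly-A libraries, quantified GRCm38 transcripts with kallisto (version not given in the sources used here) and deposited, per transcript, an estimated count, not normalized, the effective length, and TPM, scaled to effective length and to the same total in every tumor. The sources name a stranded kit and call the libraries non-stranded, so reads of a gene and of an antisense gene that overlaps it may be mixed.

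Of 120299 transcripts, 120289 were matched by accession to RefSeq genes (GRCm38.p6); the other 10 were left out. Estimated counts and TPM were added per gene, and counts were rounded. Genes were kept by filterByExpr (minimum count 10), normalized by TMM and tested in edgeR (version 4.0.16, under R 4.3.3) with quasi-likelihood F statistics, in a single fit of 4 groups without covariates, with Benjamini-Hochberg adjustment over 17599 genes in each comparison and a threshold of 0.1. SE is the log2 fold change divided by the square root of F. In this fit, p-values test the difference between groups against the spread between tumors within groups, estimated over all 4 groups. With 3 tumors against 3 an exact permutation test cannot go below 0.1. Alternatives were DESeq2 1.42.0, limma-voom (limma 3.58.1), DESeq2 size factors, other filters, fits of only the groups compared, length offsets, 0.05 as the threshold, and fits that each drop 1 tumor. The sum without Tnni2 was added after seeing the data. Sums and ratios were computed in Python 3.11.15. Pooled ratios have exact conditional intervals and shares exact binomial intervals, at 95%.

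The 40 genes and the gene lists were chosen with earlier results of these data known. Genes described tumor by tumor are the fast and slow isoforms named, Acta1 and their partners, the 5 most changed of those called or the 3 of smallest p in each comparison with vehicle, the highest of each part of the sarcomere and those with at most 3 counts in every vehicle-treated tumor. Of other sarcomere genes, those called and the developmental and cardiac partners were eligible, and of each marker list the 2 of highest mean CPM. Trim54, Mybph, Eno3, Myod1, Myog, Myf6, Thbs4, Tnmd and Nppb, which the rule does not cover, were named after their values were seen.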

Additional observations from a re-analysis of the deposited data

How the results depend on the processing

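The count of genes called after VCR, 21, was 34 by DESeq2 on all tumors, 33 by DESeq2 and 33 by edgeR on only the groups compared, 5 by limma-voom and 0 at an adjusted p under 0.05; it was 20 with DESeq2 size factors, 26 with no filter, 25 with a mean of at least 50 counts and 18 with length offsets, and 0 to 34 when each tumor was left out. After RCM1-NPFA the count of 0 became 27 by DESeq2 on all tumors and 2 on only the groups compared, where only 11 of the 40 genes had an adjusted p, and it stayed at 0 when each tumor was left out. After the combination it became 16 and 29 by the same tools, and 0 to 14 when each tumor was left out. The interaction went from 0 to 27, all lower, by DESeq2 on all tumors; it could not be computed in fits of only the groups compared. Every call in any of these settings in a comparison with vehicle was higher. The cause of these differences was not tested.

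The median ratio of fast to slow genes became 24.7 for vehicle, 250 for VCR, 28.2 for RCM1-NPFA and 273 for the combination with wider lists, and 2.84, 242, 12.7 and 324 in CPM. Without Tnni2 the median sum in vehicle-treated tumors was 33.7 TPM. With each tumor left out, the median ratio was 2.55 to 4.26 for vehicle, 88.5 to 249 for VCR, 5.91 to 594 for RCM1-NPFA and 70.2 to 171 for the combination.

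Of 1247 alternative values for single genes, 15 changed sign. Most were in slow genes with changes near 0. Tnnt1 after VCR was -0.0023 with a mean of at least 50 counts and -0.25 to 0.23 when each tumor was left out, including -0.06 and -0.013 without m4 and m5, and after the combination it was -0.034 with length offsets and -0.25 to 0.22, including -0.20 without m12. Tnnc1 after RCM1-NPFA was -0.049 in limma-voom and -0.35 to 0.63, including -0.21 without m2, and after the combination -0.13 to 0.68, including -0.11 without m12. Tnni1 after the combination was -0.27 (without m12) to 0.55. After RCM1-NPFA, Myh4 was -0.29 and Igfn1 -3.19 without m9, and 18.63 and 5.09 without m1. A further 123 values lost and 61 gained a call. Myh7 and Myl2 had at most 4 and 9 counts in any tumor, so a difference in them was not detectable at this depth. No paired analysis was possible because tumor numbers m1 to m12 are not shared between groups.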
